A study of Mus musculus with 18 samples.

Results

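The response of Trem2+/+ mouse microglia to tau fibrils was described by comparing 3 RNA sequencing libraries of cells that received tau with 3 libraries of cells that did not. The members were chosen by their sample labels alone: these 6 libraries of the 18 in the series, and all 13267 genes of the 54532 in the count table that passed a filter on low counts. Microglia are the resident macrophages of the brain. The cells were primary microglia from pups of postnatal days 0 to 3, taken from mixed cultures after 10 days. Both groups were Trem2+/+, and both had a 6 h pre-treatment with 0.01% DMSO, the vehicle of a drug used elsewhere in the study. One group then received fibrils of 0N4R tau at 1 ug per ml and the other received none. The labels give neither the time with tau nor whether replicates came from different cultures or pups. The p-values thus reflect only how far libraries spread within groups, estimated over all 18 libraries, possibly for technical reasons. The other 12 libraries were R47H/+ cells, which carry the R47H form of TREM2 on one allele, and 6 of those, with and without the same tau fibrils after DMSO, served as a comparison.

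Tau is a microtubule-binding protein of neurons that forms fibrils in Alzheimer disease and other tauopathies, and microglia take such fibrils up. Phagocytes sense foreign nucleic acids and aggregates through Toll-like receptors and cytosolic sensors. Those sensors signal to NF-kB, which drives cytokine genes, and to IRF factors, which drive type I interferon. Secreted interferon acts back on the cell through the IFNAR receptor and a complex of STAT and IRF factors, which binds interferon-stimulated response elements in the promoters of many genes. TREM2 is a lipid-sensing surface receptor that, with its adaptor TYROBP, signals through the kinase SYK and supports survival, lipid handling and the disease-associated state of microglia.

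Promoters of genes that rose carried the response element named above more often than promoters of other genes, so a few are shown here with elements of the other gene groups that moved. Sequences are from RefSeq promoters on build GRCm38.p6, which cover 250 bases before to 50 bases after a start site. They read 5′ to 3′ on the gene's strand, and capitals mark the motif. The first set holds the core of the interferon-stimulated response element, which is GAAA, any 2 bases and GAAA on either strand.
Isg15 (chr4:156200850-156200921, minus strand): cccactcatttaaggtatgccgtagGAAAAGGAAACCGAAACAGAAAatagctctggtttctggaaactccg
Ifit1 (chr19:34640760-34640838, plus strand): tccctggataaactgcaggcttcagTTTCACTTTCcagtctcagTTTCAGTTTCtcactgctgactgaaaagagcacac
Irgm1 (chr11:48871421-48871475, minus strand): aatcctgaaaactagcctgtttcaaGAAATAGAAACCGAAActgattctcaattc
Gbp3 (chr3:142559974-142560039, plus strand): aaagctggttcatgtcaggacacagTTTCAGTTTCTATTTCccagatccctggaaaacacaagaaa
Apol9b (chr15:77729010-77729071, plus strand): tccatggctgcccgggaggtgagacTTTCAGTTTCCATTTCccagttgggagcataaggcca
Cxcl10 (chr5:92349068-92349127, minus strand): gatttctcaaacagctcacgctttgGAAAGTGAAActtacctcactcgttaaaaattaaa
B2m (chr2:122147523-122147582, plus strand): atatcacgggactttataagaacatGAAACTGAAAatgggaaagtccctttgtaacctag
Isg15 holds 3 matches and each of Ifit1, Irgm1, Gbp3 and Apol9b holds 2, and overlapping matches are capitalised as 1 run. The core was present in promoters of 4.07% of the 9777 tested genes with a RefSeq promoter. It was present in 10.3% of those called higher with tau, 2.64% of those called lower and 3.04% of those not called. Of the guanylate-binding protein and immunity-related GTPase genes with a promoter, 10 of 11 (90.9%) held it, and of the antiviral effectors 14 of 31 (45.2%). A match is a description of the letters, not evidence that a factor binds there.

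The second set shows cores from the gene groups for amino acid supply, NF-kB feedback and sterol synthesis, and from the early response genes.
Chac1 (chr2:119351024-119351081, plus strand): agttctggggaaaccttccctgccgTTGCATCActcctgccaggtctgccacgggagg
Asns (chr6:7693210-7693257, minus strand): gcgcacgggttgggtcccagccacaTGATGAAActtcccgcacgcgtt
Slc1a4 (chr11:20332685-20332742, minus strand): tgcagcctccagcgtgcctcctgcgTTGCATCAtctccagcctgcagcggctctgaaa
Nfkbia (chr12:55492648-55492701, minus strand): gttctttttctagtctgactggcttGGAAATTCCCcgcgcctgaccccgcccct
Hmgcs1 (chr13:119690189-119690246, plus strand): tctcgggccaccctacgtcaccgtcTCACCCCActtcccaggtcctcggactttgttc
Msmo1 (chr8:64733723-64733780, minus strand): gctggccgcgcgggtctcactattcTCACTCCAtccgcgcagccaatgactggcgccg
Egr2 (chr10:67537772-67537831, plus strand): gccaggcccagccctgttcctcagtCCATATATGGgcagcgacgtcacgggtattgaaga
Dusp5 (chr19:53529038-53529107, plus strand): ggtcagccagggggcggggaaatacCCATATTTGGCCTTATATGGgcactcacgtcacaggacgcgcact
Chac1, Asns and Slc1a4 show the composite C/EBP-ATF core TGATGNAA, which 2.87% of all tested genes with a promoter held. Of genes called higher 4.73% held it, against 2.21% of those called lower and 7 of 22 in the ATF4 list. Nfkbia shows the NF-kB core, which is GGG, any 2 bases and TTTCC, found in 2.1% of all these genes and in 8 of 26 of the NF-kB list. Hmgcs1 and Msmo1 show the sterol response core TCACNCCA, found in 4.67% of all these genes and in 3 of 18 of the cholesterol list. Genes called higher and genes called lower held it alike, at 5.14% and 5.02%. Egr2 and Dusp5 show the CArG box, the site of serum response factor, found in 1.54% of all these genes and in 2 of 24 of the early response list. Both strands were searched for each motif. A gene with several promoters counted once if any of them held the motif.

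The 6 libraries held 17150277 to 20686299 counts, and levels are given as TMM-scaled CPM, a gene's share of a library's counts. One library stood apart. Replicate 3 without tau had little signal from long genes and much from short ones. Its deviation from the mean of the other libraries of its group had a slope of -1.39 log2 units for each 10-fold step in gene length. Taken the same way, the slopes of the other 5 lay between -0.17 and 0.79. For replicates 1 and 2 without tau, that mean holds replicate 3, so their slopes carry its shift with the opposite sign. Results are therefore given with all libraries and again without that library, called "without replicate 3" below. In the shortest of 4 equal groups of genes by length, 57 to 2459 bp, the median log2 change with tau was -0.29 with it and 0.07 without it, and in the longest, from 6475 bp, it was 0.08 and -0.10.

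**Figure D1:**
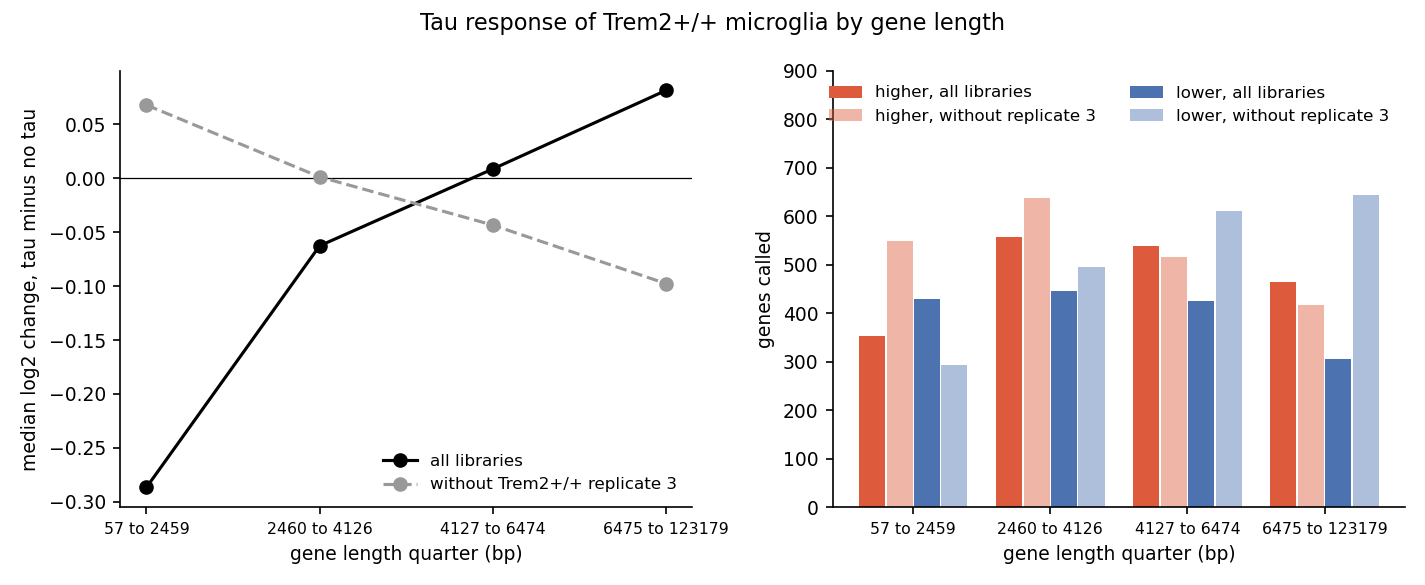
Left, the median log2 change with tau (y axis) in 4 equal groups of genes by length (x axis, bp), with all libraries (black) and without replicate 3 of the libraries without tau (grey); right, the genes called higher (red) or lower (blue) in each group, with paler bars for the fit without that replicate. The black line rises from -0.29 to 0.08 with length and the grey line falls from 0.07 to -0.10, so the direction of the length trend turned when that library was left out.

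The markers of microglia were present in all 6 libraries, with Tmem119 close to 0. Csf1r, the receptor for the survival factor CSF1, lay between 1479 and 2612 CPM, C1qa between 1487 and 4798, and Spi1 between 417 and 722 CPM. Cx3cr1 lay between 34.96 and 55.8 CPM, P2ry12 between 7.64 and 31.3 CPM, and Tmem119 between 0.31 and 1.68 CPM. Of 12 neuron markers 9 stayed under 1 CPM, and of 12 lymphocyte markers 11 did. Fewer did so among 12 astrocyte markers, at 6, and among 12 oligodendrocyte lineage markers, at 2. Of the latter, Mbp reached 136.6 CPM and Cnp 178.6 CPM. Border macrophage genes were not absent: Pf4, Ms4a7 and Mrc1 reached 932, 757 and 546 CPM, while Lyve1 had 0 counts and Cd163 stayed at or below 0.73 CPM. In bulk RNA, fewer cells of a type and less RNA per cell cannot be told apart.

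Tau fibrils changed the level of 3519 genes, 26.5% of the genes tested, at an adjusted p under 0.05 (edgeR quasi-likelihood F-test in a fit of all 18 libraries, which share an estimate of the spread, Benjamini-Hochberg adjustment over all 13267 genes). Of these 1913 (14.4%) rose and 1606 (12.1%) fell, and rose and fell below mean calls of this kind. The rises were larger than the falls: 458 genes rose by more than 2 log2 units and 123 fell by more than 2. Without replicate 3, 4188 genes changed (30.9%), 2133 higher (15.7%) and 2055 lower (15.2%), and 1670 of the higher and 1258 of the lower calls were shared with the fit on all libraries. A fit of the 6 libraries alone called 1311 genes, 843 higher and 468 lower, all of them also called in the fit on all libraries. The median log2 change over all genes tested was -0.04. All 3 libraries with tau lay above all 3 without it in 1878 of the genes called higher, and below in 1477 of those called lower, where 20.1% and 16% of all genes tested had such ranges. With 3 libraries a group the smallest p of an exact two-sided permutation test is 0.1, and that test was not used.

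**Figure D2:**
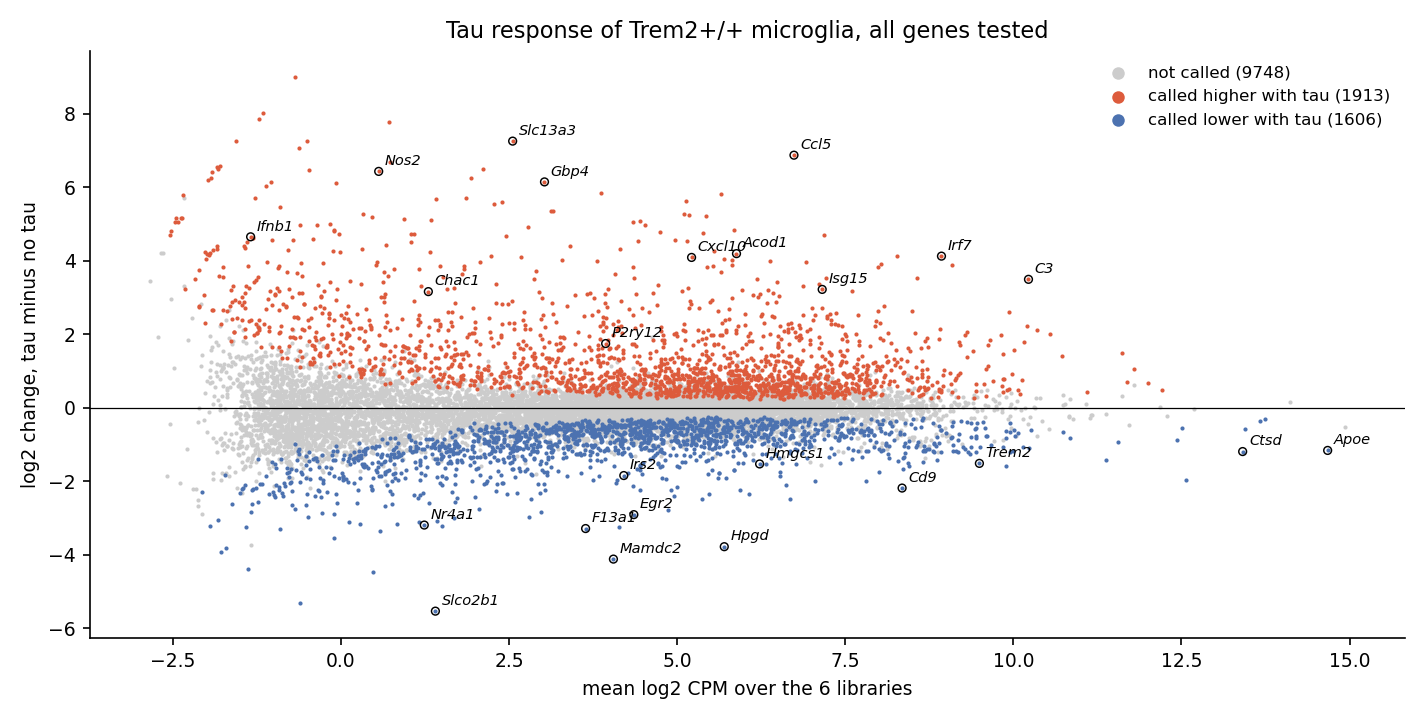
Each point is a gene, with the mean log2 CPM over the 6 libraries on the x axis and the log2 change, tau minus no tau, on the y axis; red genes were called higher, blue lower and grey were not called. The rises reach further than the falls, with Slc13a3, Ccl5 and Gbp4 above 6 log2 units and Slco2b1 at -5.53.

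The 12 highest rises by the naming rule included 2 chemokine genes and 2 transporter genes. Slc13a3, a sodium-coupled dicarboxylate transporter (ENSMUSG00000018459, chromosome 2, 165405028 to 165473230, GRCm38), measured 0.104, 0.55 and 0.742 CPM in cells without tau and 62.7, 76.9 and 70.6 CPM in cells with it. Its counts were 25 in all libraries without tau and 4065 with tau, and every library with tau was far above every library without it (log2 change 7.26, SE 0.34, adjusted p = 1.44e-10). Ccl5, a chemokine for T cells and monocytes (ENSMUSG00000035042, chromosome 11, 83525778 to 83530518), measured 3.74, 9.12 and 20.05 CPM in cells without tau and 1161, 1348 and 1321 CPM in cells with it (log2 change 6.88, SE 0.48, adjusted p = 1.71e-08). The libraries without tau were widely spread for Ccl5, with replicate 3 the highest (log2 change 7.58 without it), and the libraries with tau were close together. Others of the 12 were Apol9b (6.50), Susd2 (6.26), Gbp4 (6.15), Slfn4 (5.85), Ms4a4c (5.82), Slco3a1 (5.72), Cxcl9 (5.68), Ifit1bl1 (5.63) and Cfb (5.59), as log2 changes. Apol9b, the Gbp genes, the Ifit genes and the Ms4a4 genes have near-identical copies, so the split of their reads is uncertain.

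The 12 deepest falls by the same rule were of genes with varied roles. Slco2b1, an organic anion transporter (ENSMUSG00000030737, chromosome 7, 99657804 to 99711340), measured 22.7, 14.99 and 10.9 CPM in cells without tau and 0.383, 0.254 and 0.398 CPM in cells with it (log2 change -5.53, SE 0.45, adjusted p = 1.02e-07), on 20 counts in all libraries with tau. Hpgd, the enzyme that inactivates prostaglandins (ENSMUSG00000031613, chromosome 8, 56294585 to 56321043), measured 176, 136 and 277 CPM in cells without tau and 15.2, 13.8 and 13.9 CPM in cells with it (log2 change -3.78, SE 0.27, adjusted p = 1.87e-08). For both genes the groups were wide apart and did not overlap. Dkk2, a secreted Wnt inhibitor, fell by 3.24, Mamdc2 by 4.12, F13a1, a transglutaminase, by 3.28, and Gpr183, the receptor for an oxysterol, by 3.21 log2 units. Nr4a1, Lama3, Plekhh2, Cd276, Pde1c and Egr2 fell by 3.19, 3.11, 3.08, 2.99, 2.98 and 2.91. The call of Lama3 was lost in a fit of the 6 libraries alone (adjusted p = 0.052).

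**Figure D3:**
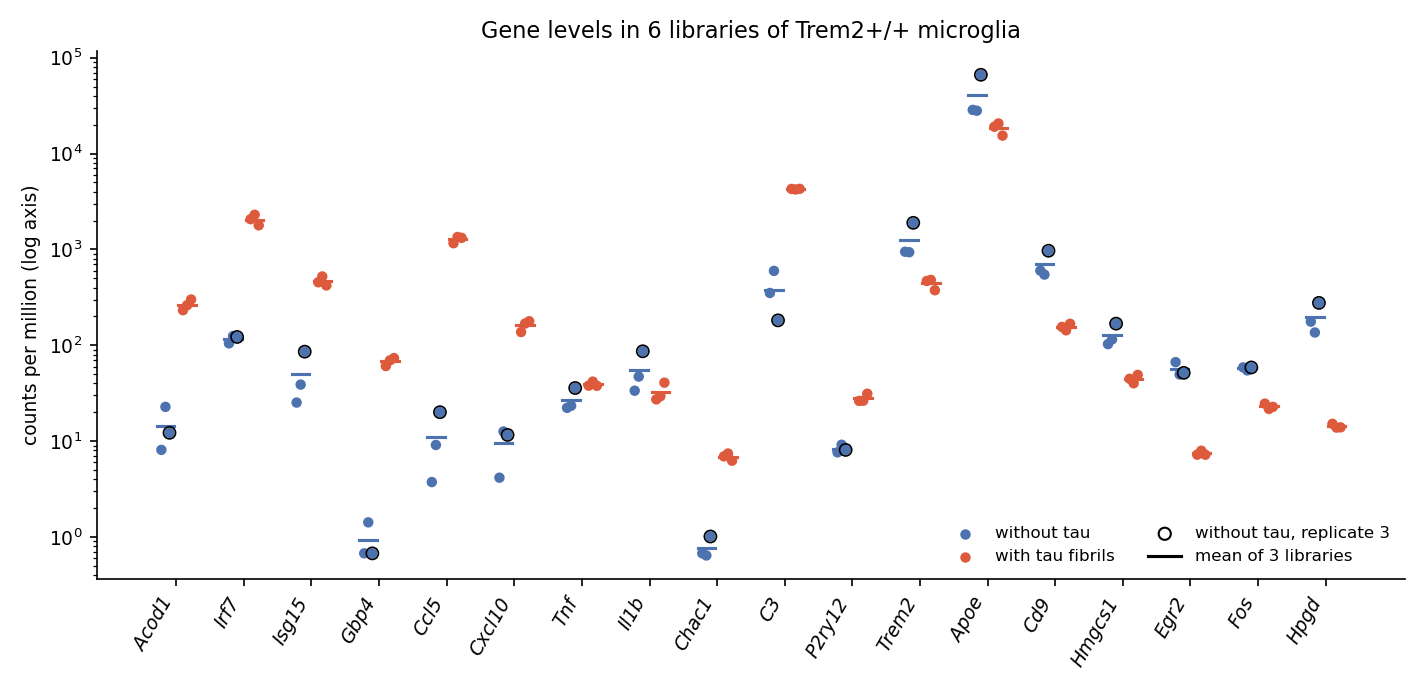
CPM on a log axis (y) for 18 genes (x) in the 3 libraries without tau (blue) and the 3 with tau (red); bars are group means and the ringed point is replicate 3 without tau. Irf7, Gbp4, Ccl5 and C3 lie higher and Hpgd, Egr2 and Cd9 lower in every library with tau, Il1b overlaps between the groups, and the ringed point stands apart from its group for Trem2, Apoe and Isg15.

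Sensors, signalling genes and effectors of the interferon system rose, and its receptors did not. Of the sensors of foreign nucleic acid, 21 of 23 tested members rose and 0 fell, with a median log2 change of 1.82 (20 and 1 without replicate 3). Over all genes tested 14.4% rose and 12.1% fell with a median of -0.04, and the counts of the other lists are to be read against these shares. Zbp1, a sensor of Z-form nucleic acid that triggers cell death, measured 34.1, 47.3 and 48.3 CPM in cells without tau and 429.8, 456 and 444 CPM in cells with it (log2 change 3.36, SE 0.13, adjusted p = 2.55e-11). Ddx58, which encodes the RNA sensor RIG-I, measured 86.3, 109 and 64.995 CPM in cells without tau and 488, 469 and 550.4 CPM in cells with it (log2 change 2.53, SE 0.16, adjusted p = 6.98e-09). Neither gene overlapped between groups. The RNA sensor Ifih1 rose by 2.50, the DNA sensor cGAS (Mb21d1) by 1.37 and its adaptor STING (Tmem173) by 0.83 log2 units. Tlr9, an endosomal DNA receptor, measured 38.1, 39.98 and 3.04 CPM in cells without tau and 183, 184 and 164 CPM in cells with it. Replicate 3 was far below its group for Tlr9. The rise was 2.70 with it and 2.15 without it, and its call was lost in a fit of the 6 libraries alone (adjusted p = 0.0913), as was that of Mb21d1 (adjusted p = 0.0676).

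Ifnb1, the gene of interferon beta, had 2 counts in all libraries without tau and 62 in those with tau, a ratio of 29.8 (95% counting interval 7.9 to 251, exact binomial, counting error only). Its level stayed low, at 1.05, 1.27 and 0.852 CPM with tau. Of the receptors, kinases, STATs, IRFs and SOCS genes, 16 of 29 rose and 1 fell (17 and 2 without replicate 3, median 0.61). Irf7, the interferon-induced factor that amplifies interferon genes, measured 105, 125 and 122 CPM in cells without tau and 2068, 2300.0 and 1784 CPM in cells with it (log2 change 4.13, SE 0.15, adjusted p = 2.03e-11). The libraries of each group were close together for Irf7. Stat2 and Irf9, parts of the interferon-activated complex, rose by 2.65 and 0.61. The call of Irf9 was lost in the fit of the 6 libraries alone (adjusted p = 0.0517). The feedback inhibitors Usp18, Socs1 and Socs3 rose by 3.11, 2.52 and 1.54. The receptor genes Ifnar1 at -0.08, Ifnar2 at 0.23 and Ifngr2 at 0.14 were not called, and Ifngr1 fell by 0.27 (adjusted p = 0.269 in that fit).

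Of 39 antiviral effectors tested 38 rose and 1 fell, with and without replicate 3. The summed level of all 40 in the list was 3252 to 4187 CPM without tau and 20100 to 21430 CPM with it. The median log2 change was 2.44. Ifi44 measured 2.91, 3.62 and 3.91 CPM in cells without tau and 102, 121 and 122 CPM in cells with it (log2 change 5.05, SE 0.17, adjusted p = 1.65e-11). Rsad2, which encodes viperin, an enzyme that makes a chain-terminating nucleotide, measured 62.8, 95.9 and 65.5 CPM in cells without tau and 1224, 1385 and 1329.6 CPM in cells with it (log2 change 4.13, SE 0.17, adjusted p = 3.59e-11). Both genes stood far apart between groups. Isg15, a ubiquitin-like modifier, measured 25.3, 38.9 and 85.8 CPM in cells without tau and 454, 522 and 421 CPM in cells with it, and its replicate 3 was the highest of the libraries without tau. It rose by 3.22, and by 3.83 without replicate 3. Other members included Oasl1 by 5.24, Isg20 by 4.54, Mx1 by 3.96, Oas3 by 3.93, Ifit2 by 3.89 and Cmpk2 by 3.85. Ifitm1, of a family of membrane proteins that block viral entry, was the member that fell (1.56, 1.56 and 3.1 CPM in cells without tau and 0.861, 0.763 and 0.398 CPM in cells with it, log2 change -1.57, adjusted p = 0.00803), a call lost in a fit of the 6 libraries alone (adjusted p = 0.0733), while its relative Ifitm3 rose by 1.70.

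All 16 tested guanylate-binding proteins and immunity-related GTPases, which attack membranes of intracellular pathogens, rose, with and without replicate 3 (median 3.68). Their summed level was 259 to 359 CPM without tau and 2976 to 3396 CPM with it. Gbp4 (ENSMUSG00000079363, chromosome 5, 105115767 to 105139586) measured 0.676, 1.42 and 0.675 CPM in cells without tau and 60.8, 69.6 and 73.5 CPM in cells with it (log2 change 6.15, SE 0.23, adjusted p = 2.3e-11). Gbp2 measured 19.4, 37.3 and 29.5 CPM in cells without tau and 683, 760.1 and 823 CPM in cells with it (log2 change 4.72, SE 0.2, adjusted p = 6.12e-11). For both genes every library with tau was far above the highest library without it. Iigp1, Gbp5, Gbp3 and Irgm1 rose by 5.22, 4.54, 4.06 and 2.21. Gbp2b had 0 counts in the libraries without tau and 38 with tau, at least 9.42-fold higher by the lower 95% counting bound and 12.2-fold higher against a floor of 3 counts over the group. Reads of this family can be shared between near-identical copies, Tgtp1 and Tgtp2 included.

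Class I antigen presentation rose, and class II rose less evenly. Of 22 genes of class I and peptide loading, 18 rose and 0 fell, and all 22 rose without replicate 3 (median 1.34 and 1.81). Tap1, a chain of the transporter that carries peptides into the endoplasmic reticulum, measured 95.6, 119 and 93.004 CPM in cells without tau and 650.1, 711 and 556 CPM in cells with it (log2 change 2.64, SE 0.12, adjusted p = 1.22e-10). Nlrc5, the transactivator of class I genes, rose by 2.27, the immunoproteasome subunits Psmb9 and Psmb8 by 1.55 and 1.23, and H2-K1 by 1.49. The calls of Psmb9 and Psmb8 were lost in a fit of the 6 libraries alone (adjusted p = 0.0676 and 0.218), and without replicate 3 Psmb8 rose by 2.02. H2-Q7 and H2-Q6 rose by 4.77 and 5.29, but their reads cannot be told apart with certainty. B2m, the light chain of all class I molecules, depended on replicate 3: it measured 2105, 2201 and 4579 CPM in cells without tau and 4076, 4586 and 5116 CPM in cells with it. Replicate 3 lay among the libraries with tau, and B2m was at 0.63 (adjusted p = 0.0545) with it and rose by 1.06 (adjusted p = 5.92e-06) without it. For class II, 6 of 11 rose and 0 fell (9 and 0 without replicate 3), and 1 was called in a fit of the 6 libraries alone. H2-Aa and H2-Ab1 rose by 1.15 and 1.09 (adjusted p = 0.232 and 0.227 in that fit), and Ciita, their transactivator, by 1.67, a call lost without replicate 3 (adjusted p = 0.0973) and in that fit (adjusted p = 0.125). Cd74, the invariant chain, was at 0.29 and was not called with replicate 3 in.

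Several but not all chemokines that draw monocytes and T cells rose, while Cxcl2 and Cxcl3, which draw neutrophils, were not called. In the CC family 6 of 12 rose and 2 fell (7 and 2 without replicate 3). Ccl2, the main monocyte chemokine, measured 2.7, 3.21 and 4.66 CPM in cells without tau and 49.4, 59.6 and 59.1 CPM in cells with it (log2 change 4.003, SE 0.27, adjusted p = 1.11e-08). Its relatives Ccl7 and Ccl12 rose by 4.93 and 4.39 (5.18 for Ccl12 without replicate 3), and Ccl8 by 1.71 (adjusted p = 0.0599 in a fit of the 6 libraries alone). Ccl3 at -0.07 and Ccl4 at 0.73 were not called, and Ccl4 rose without replicate 3 (1.45). Ccl22 fell from 32 counts in all libraries without tau to 2 with tau, a ratio of 0.06 (95% counting interval 0.00697 to 0.235). In the CXC and CX3C families 4 of 10 rose and 1 fell (5 and 1 without replicate 3), and 3 of the 4, Cxcl9, Cxcl10 and Cxcl11, are ligands of CXCR3 on T cells. Cxcl10 measured 4.16, 12.6 and 11.6 CPM in cells without tau and 138, 169 and 178 CPM in cells with it (log2 change 4.09, SE 0.35, adjusted p = 1.63e-07), Cxcl9 rose by 5.68, and Cxcl11 had 3 counts without tau and 84 with tau, a ratio of 26.9 (95% counting interval 8.89 to 133). The 3 counts of Cxcl11 without tau were all in replicate 3. Cxcl2 was at -0.80 and Cxcl3 at -0.01 (-0.20 and 1.16 without replicate 3, not called). Scaled for gene length as well as library size (RPKM), mean levels with tau were 1329.7 for Ccl5, 71.7 for Cxcl10 and 49.2 for Ccl2, with Ccl5 far above the others.

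Of 26 cytokines and growth factors 14 rose and 3 fell (14 and 4 without replicate 3), and the classical pair Tnf and Il1b did not lead them. Tnf measured 22.2, 23.4 and 35.8 CPM in cells without tau and 37.9, 41.8 and 37.8 CPM in cells with it (log2 change 0.53, SE 0.16, adjusted p = 0.0235), and its call was lost in the fit of the 6 libraries alone (adjusted p = 0.223). Il1b measured 33.6, 47.1 and 86.6 CPM in cells without tau and 27.3, 29.4 and 40.7 CPM in cells with it, its ranges overlapped and it was not called (adjusted p = 0.0846). Il1rn, the secreted antagonist of the IL-1 receptor, measured 23.4, 20.04 and 25.3 CPM in cells without tau and 78.3, 94.3 and 96.9 CPM in cells with it (log2 change 1.97, SE 0.15, adjusted p = 4.07e-08). Il18bp, which neutralises IL-18, measured 4.47, 5.41 and 8.44 CPM in cells without tau and 66.7, 74.9 and 69.9 CPM in cells with it (log2 change 3.54, SE 0.2, adjusted p = 1.47e-09), against a rise of 1.34 for Il18 itself, a call lost in that fit (adjusted p = 0.0981). Both inhibitors were above every library without tau. Il15, Il27, Tnfsf10 (the death ligand TRAIL) and Tnfsf13b (BAFF) rose by 1.73, 2.27, 4.32 and 2.22. Il10 had 9 counts without tau and 86 with tau, a ratio of 9.18 (95% counting interval 4.62 to 20.8; log2 change 3.12, or 3.80 without replicate 3), and Il12b 5 and 40. Pdgfb, Pdgfa and Igf1, growth factors, fell by 1.41, 0.71 and 0.56; in that fit the calls of Pdgfa and Igf1 were lost (adjusted p = 0.0837 and 0.0676). Of 31 chemokine and cytokine receptors 16 rose and 4 fell (14 and 5 without replicate 3), with Il15ra at 2.99 and Il21r at 2.38 among those that rose and Ccr1 at -1.26 and Cxcr4 at -0.98 among those that fell.

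NF-kB genes and Toll-like receptors moved by smaller amounts. In the NF-kB list 15 of 31 rose and 2 fell (17 and 3 without replicate 3, median 0.46). Traf1, an adaptor of TNF receptors, rose by 3.11 from 0.10 to 0.94 CPM without tau to 3.11 to 5.75 CPM with tau. Cflar and Birc3, which block cell death, rose by 1.17 and 1.18, and the kinase Ikbke, which activates IRF3, by 1.41. The subunit genes Rela at -0.08, Nfkb1 at 0.26 and Rel at 0.34 were not called, and Nfkbia, the inhibitor shown above, rose by 0.49, a call lost in the fit of the 6 libraries alone (adjusted p = 0.177). Of the Toll-like receptors and adaptors 10 of 19 rose and 1 fell (8 and 2 without replicate 3). Tlr1, Cd180 and Irak3, a brake on the pathway, rose by 1.72, 1.63 and 1.20, and Cd14, the lipopolysaccharide co-receptor, fell by 1.17. Tlr2 at 0.20 was not called.

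Genes of programmed cell death rose: 15 of 25 rose and 2 fell (16 and 1 without replicate 3). Mlkl, the pore-former of necroptosis, measured 8.83, 11.4 and 14.6 CPM in cells without tau and 104, 111 and 117 CPM in cells with it (log2 change 3.26, SE 0.15, adjusted p = 1.11e-10). The libraries of both groups were tight for Mlkl. Casp4 and Gsdmd, which act in pyroptosis, rose by 1.30 and 1.19, the apoptotic caspase Casp8 by 0.77, and the inflammasome sensor Nlrp3 by 0.73 (adjusted p = 0.179 in the fit of the 6 libraries alone). Bcl2, a survival gene, fell by 1.14. Of 24 costimulatory and adhesion genes 14 rose and 4 fell (14 and 4 without replicate 3). Cd40 measured 4.26, 6.47 and 7.49 CPM in cells without tau and 41.04, 41.9 and 38.3 CPM in cells with it (log2 change 2.74, SE 0.22, adjusted p = 8.08e-08). Vcam1, Cd69, Cd274 (PD-L1) and Cd86 rose by 3.63, 3.52, 2.56 and 1.74. Cd83 and Itgax fell by 1.73 and 1.26, and Cd80 at 0.23 was not called.

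Inducible nitric oxide synthase rose and arginase fell. Nos2, the inducible nitric oxide synthase, had 7 counts in all libraries without tau and 653 with tau, a ratio of 89.6 (95% counting interval 43.2 to 224). Arg1, which competes with it for arginine, measured 72.9, 53.8 and 77.5 CPM in cells without tau and 17.3, 14.2 and 14.3 CPM in cells with it (log2 change -2.16, SE 0.16, adjusted p = 4.61e-08). The arginine supply gene Ass1 rose by 3.20, and Srm and Sms, which make polyamines, fell by 0.91 and 1.14. Acod1, which makes itaconate, measured 8.11, 22.8 and 12.2 CPM in cells without tau and 232, 262 and 300.3 CPM in cells with it (log2 change 4.20, SE 0.34, adjusted p = 9.45e-08). No library overlapped between groups for Arg1 or Acod1. In this list 7 of 16 rose and 4 fell (8 and 3 without replicate 3). Of 9 oxidase and superoxide dismutase genes 5 rose and 1 fell, Cybb, Ncf1, Rac2 and Sod2 among the rises by 1.06, 1.02, 1.12 and 1.16. The calls of Cybb and Sod2 were lost in the fit of the 6 libraries alone (adjusted p = 0.0646 and 0.0646).

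Prostaglandin E2 genes moved in opposite ways for synthesis and removal. Ptgs2 (cyclooxygenase 2) measured 0.468, 0.321 and 0.675 CPM in cells without tau and 3.01, 3.66 and 4.94 CPM in cells with it (log2 change 3.02, SE 0.46, adjusted p = 9.97e-05), and Ptges, the inducible synthase, measured 5.35, 11.5 and 5.2 CPM in cells without tau and 31.6, 30.7 and 39.5 CPM in cells with it (log2 change 2.19, SE 0.28, adjusted p = 2.1e-05). Both synthetic genes rose in all libraries with tau. Hpgd, which degrades prostaglandins, and Slco2b1, an organic anion transporter of the same list, fell by 3.78 and 5.53 as described above. Genes of the leukotriene branch, Ltc4s, Alox5 and Lta4h, fell by 2.07, 0.84 and 0.75, Ltc4s by 1.09 without replicate 3 and with its call lost in the fit of the 6 libraries alone (adjusted p = 0.095). In the list 7 of 22 rose and 7 fell (7 and 7 without replicate 3).

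Early response genes, which growth factor and MAP kinase signals induce within minutes, fell. Of 29 MAP kinase phosphatases and early response factors 16 fell and 3 rose (17 and 3 without replicate 3, median -0.58). Egr2 measured 66.7, 49.6 and 51.6 CPM in cells without tau and 7.22, 7.94 and 7.22 CPM in cells with it (log2 change -2.91, SE 0.19, adjusted p = 8.3e-09). Egr1 measured 66.5, 54.8 and 47.1 CPM in cells without tau and 13.3, 14.9 and 15.6 CPM in cells with it (log2 change -1.95, SE 0.18, adjusted p = 4.64e-07), and Fos measured 58.8, 54.7 and 58.7 CPM in cells without tau and 24.6, 21.7 and 22.8 CPM in cells with it (log2 change -1.32, SE 0.12, adjusted p = 2.58e-07). The groups did not overlap for any of these zinc finger and AP-1 factors, and replicate 3 was near the other libraries without tau. Nr4a1, an orphan nuclear receptor, measured 6.08, 6.65 and 7.96 CPM in cells without tau and 1.05, 0.763 and 0.398 CPM in cells with it (log2 change -3.19, SE 0.31, adjusted p = 7.36e-07) on 44 counts with tau. Maff and Dusp5, a phosphatase of ERK, fell by 1.63 and 1.35, and Spry2, Dusp6, Atf3, Jun and Dusp1 by 0.94, 0.62, 0.59, 0.47 and 0.46. The calls of Dusp6, Jun and Dusp1 were lost in the fit of the 6 libraries alone (adjusted p = 0.0766, 0.183 and 0.138). Klf4, Ier3 and Dusp2 were the members that rose, by 1.26, 0.57 and 0.82, the calls of Ier3 and Dusp2 being lost in that fit (adjusted p = 0.259 and 0.315). Junb at -0.05 and Klf6 at 0.21 were not called. Myc, a growth regulator induced by the same signals, measured 20.996, 16.2 and 15.5 CPM in cells without tau and 4.35, 3.51 and 3.35 CPM in cells with it (log2 change -2.23, SE 0.18, adjusted p = 8.44e-08).

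**Figure D4:**
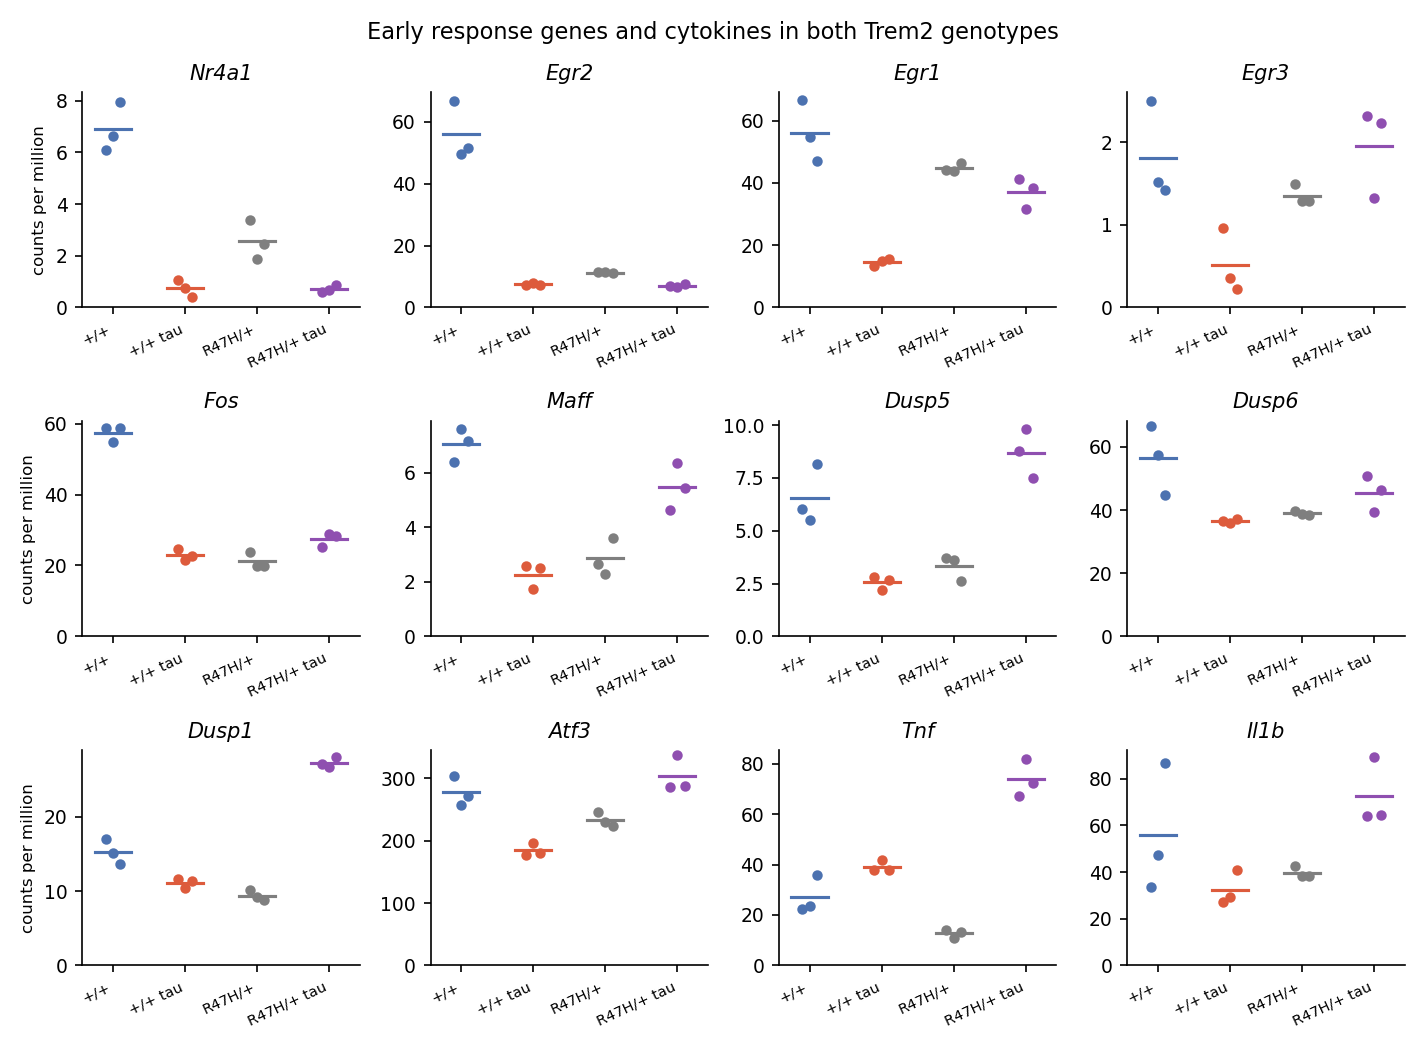
CPM (y axes, from 0) of 10 early response genes and of Tnf and Il1b in each library of Trem2+/+ cells without (blue) and with tau (red) and of R47H/+ cells without (grey) and with tau (purple); bars are means of 3 libraries. Egr1, Fos, Maff and Dusp5 lie lower in every Trem2+/+ library with tau than without it, while Dusp1, Dusp5, Maff and Tnf lie higher with tau in R47H/+ cells.

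The same genes behaved differently in R47H/+ cells, which share no library with the comparison above. The response of Trem2+/+ cells was lower than that of R47H/+ cells, by the interaction of tau and genotype, for 12 of the 29 early response genes and higher for 0, where 5.37% of all genes tested had an interaction. Fos fell by 1.32 in Trem2+/+ cells and rose by 0.38 in R47H/+ cells (difference of the responses -1.69, SE 0.16, adjusted p = 1.22e-05). In R47H/+ cells it measured 23.9, 19.9 and 19.8 CPM in the untreated libraries and 25.2, 28.98 and 28.3 CPM after tau, so R47H/+ cells without tau lay at the level that Trem2+/+ cells had with it. Egr2 differed likewise (difference of the responses -2.22, SE 0.26, adjusted p = 7.64e-05), at 11.4, 11.3 and 11.1 CPM in R47H/+ cells without tau. Egr1 fell by 1.95 in Trem2+/+ cells and was at -0.27 in R47H/+ cells, where it was not called (difference of the responses -1.67, SE 0.25, adjusted p = 0.0006). Dusp1 fell by 0.46 in Trem2+/+ cells and rose by 1.54 in R47H/+ cells (difference of the responses -1.99, SE 0.21, adjusted p = 2.42e-05). Nr4a1 fell in both genotypes, by 3.19 and 1.83, and the difference was not called (adjusted p = 0.106).

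Among all 825 transcription factor genes tested, 101 rose and 81 fell (96 and 127 without replicate 3), with shares close to those of all genes. Of 8 IRF genes 5 rose and of 6 STAT genes 3 rose, with 0 lower in either family. Of 44 basic helix-loop-helix genes 16 fell and 5 rose (19 and 6 without replicate 3). Bhlhe40 and Bhlhe41, transcriptional repressors of this family, fell: Bhlhe40 measured 111, 95.1 and 79.9 CPM in cells without tau and 29.4, 23.9 and 23.1 CPM in cells with it (log2 change -1.91, SE 0.13, adjusted p = 1.71e-08), and Bhlhe41 fell by 0.82. Batf2, an AP-1 family factor, measured 5.14, 6.37 and 5.33 CPM in cells without tau and 31.998, 40.8 and 33.3 CPM in cells with it (log2 change 2.65, SE 0.15, adjusted p = 1.5e-09). Both genes separated the groups fully. Hes1, a Notch target, and the inhibitors Id1 and Id3 fell by 2.35, 1.43 and 1.23; the calls of Id1 and Id3 were lost in the fit of the 6 libraries alone (adjusted p = 0.104 and 0.105), and without replicate 3 Id1 fell by 0.77. Cebpa, a myeloid lineage factor, fell by 0.98. Of 30 lineage and signal-dependent factors 3 rose and 8 fell (7 and 14 without replicate 3). Of these, Spi1 at 0.06, Irf8 at -0.05 and Sall1 at 0.24 were not called. In the TGF-beta list, whose signal maintains microglial identity, 2 of 22 rose and 4 fell (3 and 5 without replicate 3), Eng and Tgfbi rising by 1.67 and 1.94.

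Most genes of the disease-associated state of microglia fell, while homeostatic genes split. Of 34 disease-associated genes 21 fell and 4 rose (22 and 7 without replicate 3, median -0.71). Cd9, a tetraspanin, measured 601, 546 and 969 CPM in cells without tau and 155, 143 and 168 CPM in cells with it (log2 change -2.18, SE 0.19, adjusted p = 2.51e-07). Spp1 (osteopontin) measured 10299, 8590.4 and 17789 CPM in cells without tau and 2959, 3194 and 3334 CPM in cells with it (log2 change -1.95, SE 0.21, adjusted p = 3.25e-06), and Lgals3 (galectin 3) measured 3290.3, 3105 and 7092 CPM in cells without tau and 1740.5, 1802 and 1529 CPM in cells with it (log2 change -1.41, SE 0.25, adjusted p = 0.000419). Replicate 3 was the highest library for these short genes, and without it the changes were -1.92, -1.61 and -0.95. The call of Lgals3 was lost in the fit of the 6 libraries alone (adjusted p = 0.0502). Apoe fell by 1.16, and by 0.66 without replicate 3, and its call was lost in that fit too (adjusted p = 0.121). Gpnmb and Clec7a fell by 0.57 and 0.60, calls lost in that fit too (adjusted p = 0.203 and 0.0819). The 4 that rose were Cst7, a cystatin, by 3.10, the oxysterol enzyme Ch25h by 2.28, the receptor kinase Axl by 1.70 and Csf1 by 1.24 (adjusted p = 0.0638 in that fit).

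Of 27 homeostatic genes 9 fell and 6 rose (10 and 5 without replicate 3). The nucleotide receptors rose: P2ry12 measured 7.64, 9.17 and 8.1 CPM in cells without tau and 26.3, 26.4 and 31.2 CPM in cells with it (log2 change 1.75, SE 0.15, adjusted p = 2.51e-07) and P2ry13 measured 17.3, 19.1 and 14.04 CPM in cells without tau and 64.7, 73.8 and 77.04 CPM in cells with it (log2 change 2.09, SE 0.12, adjusted p = 1.6e-09). Gpr34, a lysophospholipid receptor, moved the other way and measured 10.3, 9.12 and 14.6 CPM in cells without tau and 3.06, 3.002 and 3.18 CPM in cells with it (log2 change -1.88, SE 0.24, adjusted p = 1.64e-05). None of the 3 overlapped between groups. Entpd1 (CD39), which breaks down ATP, and Gas6, a ligand of AXL and MERTK, fell by 1.37 and 1.19. Cx3cr1 at -0.33 was not called, and fell by 0.54 without replicate 3. Tmem119 at 1.19 and Sall1 were not called. Across 15 purinergic genes 8 rose and 3 fell (8 and 3 without replicate 3), P2ry14 and Adora2a rising by 2.82 and 1.65 and P2ry1 falling by 2.60.

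Trem2 measured 945, 935 and 1894 CPM in cells without tau and 469, 481 and 375 CPM in cells with it and fell by 1.51 (SE 0.25, adjusted p = 0.000257), and by 1.12 without replicate 3, its highest library. Among 26 genes of TREM2 and its signalling partners 9 rose and 3 fell, Trem2 itself among the falls (8 and 3 without replicate 3). Treml2, of the same receptor cluster, measured 5.98, 5.73 and 5.2 CPM in cells without tau and 41.7, 41.5 and 38.9 CPM in cells with it (log2 change 2.85, SE 0.11, adjusted p = 2.3e-11), and Treml4 rose by 2.02. Both relatives moved against Trem2. The adaptor Tyrobp at -0.87 (-0.15 without replicate 3) and the kinase Syk at 0.29 were not called. Pik3ap1 and Pik3cd, of the phosphoinositide 3-kinase branch, rose by 1.62 and 1.20, and Plcg2, a phospholipase below SYK, by 0.87; the calls of all 3 were lost in the fit of the 6 libraries alone (adjusted p = 0.18, 0.0817 and 0.0847). Of 27 microglial genes near Alzheimer risk loci 11 rose and 5 fell (12 and 5 without replicate 3). Ms4a6c, Ms4a6d, Abi3 and Ace rose by 2.70, 1.90, 1.86 and 1.70, Grn (progranulin) by 0.71 (adjusted p = 0.0547 in that fit), and Cd33 fell by 0.87.

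Several genes of the alternative and classical complement enzymes rose, and those of C1q were not called. C3 measured 351, 598 and 182 CPM in cells without tau and 4277, 4219.5 and 4283 CPM in cells with it (log2 change 3.50, SE 0.31, adjusted p = 3.32e-07). Cfb (factor B), which forms the alternative convertase with C3, measured 0.624, 1.6 and 0.135 CPM in cells without tau and 40.4, 43.2 and 40.3 CPM in cells with it (log2 change 5.59, SE 0.42, adjusted p = 3.67e-08), and C4b measured 7.64, 7.57 and 6.07 CPM in cells without tau and 63.996, 64.02 and 54.4 CPM in cells with it (log2 change 3.09, SE 0.17, adjusted p = 1.09e-09). The 3 libraries with tau were alike for each gene, and no library overlapped. C1ra and C2 rose by 2.25 and 1.08, and C1s1 went from 10 to 204 counts. C1qa at -0.20, C1qb at -0.25 and C1qc at -0.28 were not called, and without replicate 3 they were at 0.49, 0.14 and 0.13, also not called. In the list 8 of 19 rose and 3 fell (9 and 3 without replicate 3). Of 14 acute phase and inducible secreted genes 11 rose and 0 fell (13 and 0 without replicate 3): the iron-scavenging Lcn2 measured 0.052, 0.504 and 0.742 CPM in cells without tau and 14.6, 12.8 and 16.4 CPM in cells with it (log2 change 5.11, SE 0.57, adjusted p = 4.35e-06), and Hp, Cp and Serpina3g rose by 2.39, 2.23 and 5.14.

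Among Fc receptors, the activating Fcgr1 and Fcgr4 rose by 2.14 and 1.95 and Fcgr3 fell by 1.46, with 3 of 8 higher and 3 lower (4 and 2 without replicate 3). Of 26 scavenger and tau uptake receptors 7 rose and 3 fell (7 and 8 without replicate 3). Marco measured 282, 416 and 715 CPM in cells without tau and 1835, 1980.0 and 1720.2 CPM in cells with it (log2 change 1.97, SE 0.26, adjusted p = 2.34e-05). Sdc3, a heparan sulfate proteoglycan, measured 814, 797 and 324 CPM in cells without tau and 2385, 2358 and 1918 CPM in cells with it (log2 change 1.78, SE 0.25, adjusted p = 5.48e-05), and Cd36 fell by 1.25. Lrp1, a receptor through which cells take up tau, was at -0.29 and was not called, and fell by 0.71 without replicate 3 (adjusted p = 0.0223). Cx3cr1, to which tau binds, behaved likewise as given above. Of 16 lectins and Siglecs 7 rose and 3 fell (9 and 3 without replicate 3), with Siglec1, Siglece and Clec4a1 at 2.61, 2.52 and 2.30 and Siglecf at -1.88. The call of Siglec1 was lost in the fit of the 6 libraries alone (adjusted p = 0.106).

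Cholesterol synthesis fell as a pathway. Of 25 genes of synthesis and uptake 19 fell and 0 rose, and 23 fell and 0 rose without replicate 3 (median -1.03 and -1.04). Cyp51, the lanosterol demethylase, measured 159.6, 161 and 209.7 CPM in cells without tau and 49.9, 41.7 and 54.5 CPM in cells with it (log2 change -1.86, SE 0.12, adjusted p = 1.11e-08). Hmgcs1, an early enzyme of the pathway whose promoter is shown above, measured 103, 115 and 168 CPM in cells without tau and 44.7, 40.2 and 49.1 CPM in cells with it (log2 change -1.53, SE 0.15, adjusted p = 9.73e-07), and Insig1, the sterol sensor, measured 150.1, 168 and 156 CPM in cells without tau and 70.4, 62.4 and 67.9 CPM in cells with it (log2 change -1.24, SE 0.084, adjusted p = 1.3e-08). All 3 were lower in each library with tau. Sqle, Fdft1 and Msmo1 fell by 1.68, 1.59 and 1.52. The oxysterol and efflux list split, with 5 of 19 rising and 3 falling (5 and 6 without replicate 3, median 0.06). Abcg1, which exports cholesterol, measured 118, 100.4 and 61.4 CPM in cells without tau and 342, 368 and 322 CPM in cells with it (log2 change 1.88, SE 0.17, adjusted p = 4.33e-07), and Nr1h3 (LXR alpha) rose by 1.20. Ch25h, which makes the oxysterol that blocks sterol synthesis, measured 2.23, 1.88 and 2.97 CPM in cells without tau and 9.8, 12.8 and 11.4 CPM in cells with it (log2 change 2.28, SE 0.26, adjusted p = 6.18e-06). Apoe, the lipid carrier in the same list, fell by 1.16, or by 0.66 without replicate 3, and Gpr183, the receptor for an oxysterol, fell by 3.21. Of 22 lipid storage and PPAR target genes 9 fell and 1 rose (11 and 2 without replicate 3). Pparg, the regulator of lipid uptake, measured 40.8, 33.1 and 54.6 CPM in cells without tau and 9.09, 10.4 and 9.66 CPM in cells with it (log2 change -2.14, SE 0.16, adjusted p = 3.67e-08), and Fabp4 and Angptl4, its targets, fell by 2.47 and 2.44 (Fabp4 by 1.74 without replicate 3). Dgat2, which makes triglycerides, rose by 2.38. Of 16 fatty acid synthesis genes 2 rose and 3 fell (1 and 5 without replicate 3), with Fasn at -0.85 not called.

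More lysosomal genes fell than rose. Of 41 hydrolases, cathepsins and proton pump genes 15 fell and 5 rose (17 and 10 without replicate 3, median -0.17 and -0.14). Atp6v0d2, a macrophage subunit of the proton pump, measured 454, 402 and 486 CPM in cells without tau and 113, 106 and 121 CPM in cells with it (log2 change -1.98, SE 0.13, adjusted p = 9.72e-09). Atp6v0a1 fell by 1.49. Ctsc, the cathepsin that activates granule proteases, measured 508, 596 and 553 CPM in cells without tau and 1444, 1576 and 1592 CPM in cells with it (log2 change 1.48, SE 0.1, adjusted p = 1.98e-08), and Lamp2 rose by 0.49 (adjusted p = 0.154 in the fit of the 6 libraries alone). Ctsd measured 11938, 11409 and 28361 CPM in cells without tau and 7711, 7703 and 7269.7 CPM in cells with it, with replicate 3 far above its group's other libraries. It fell by 1.19, or by 0.66 without replicate 3, and its call was lost in that fit (adjusted p = 0.111).

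More genes of the ATF4 response, which cells use to restore amino acids, rose than fell. Of 25 members 16 rose and 3 fell (18 and 3 without replicate 3, median 0.79). Chac1, which degrades glutathione, measured 0.676, 0.642 and 1.01 CPM in cells without tau and 6.94, 7.43 and 6.25 CPM in cells with it (log2 change 3.16, SE 0.22, adjusted p = 1.71e-08). Slc1a4, a neutral amino acid transporter, measured 1.14, 1.47 and 0.81 CPM in cells without tau and 7.84, 9.01 and 8.64 CPM in cells with it (log2 change 2.86, SE 0.18, adjusted p = 5.49e-09), and Asns (asparagine synthetase) measured 14.2, 16.3 and 24.8 CPM in cells without tau and 62.8, 69.6 and 66.6 CPM in cells with it (log2 change 1.85, SE 0.18, adjusted p = 6.15e-07). These are the genes whose promoters are shown above, and no group overlapped. Slc7a5, Trib3, Mthfd2 and Phgdh, of transport, feedback, folate and serine synthesis, rose by 3.11, 2.85, 2.12 and 2.11. Psat1, also of serine synthesis, fell by 0.52 and Slc1a5, another neutral amino acid transporter, by 0.75; the call of Psat1 was lost in the fit of the 6 libraries alone (adjusted p = 0.096). Of 20 tRNA synthetases 8 rose and 1 fell (14 and 1 without replicate 3), Aars by 1.58 and the interferon-inducible Wars by 1.12. In contrast 2 of 21 genes of the unfolded protein response of the endoplasmic reticulum rose and 1 fell (3 and 2 without replicate 3), with its chaperone Hspa5 at 0.30 not called. Of 24 heat shock genes 0 rose and 3 fell (2 and 2 without replicate 3).

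Groups of short genes depended on replicate 3. Of 80 ribosomal protein genes 37 were called lower and 0 higher with all libraries (median -1.02), against 5 and 0 without replicate 3 (median -0.18). Of 73 nuclear genes of oxidative phosphorylation 2 rose and 0 fell with it (median -0.49), and 16 rose and 0 fell without it (median 0.27). The direction of the median thus turned for the latter. The 12 mitochondrially encoded genes fell in 7 cases and rose in 0 (9 and 0 without replicate 3). Mitochondrial genes took 1.63% and 1.64% of counts in replicates 1 and 2 without tau, 1.03% in replicate 3, and 0.98% to 1.25% with tau. Of 23 genes of the citric acid cycle 4 rose and 2 fell (6 and 3 without replicate 3). Of 26 ribosome biogenesis genes 9 fell and 0 rose (9 and 1 without replicate 3), Myc and Gnl3 by 2.23 and 0.95. In the NRF2 and glutathione list 6 of 30 rose and 9 fell (11 and 10 without replicate 3): Nqo1 and Keap1 rose by 1.90 and 1.33, and Gclc fell by 0.80, a call lost in the fit of the 6 libraries alone (adjusted p = 0.085). In glycolysis 6 of 29 rose and 4 fell (9 and 5 without replicate 3); the hexose transporter Slc2a6 measured 22.7, 41.3 and 16.7 CPM in cells without tau and 214, 233 and 208 CPM in cells with it (log2 change 3.02, SE 0.26, adjusted p = 1.75e-07), while Slc2a1 fell by 0.35 (adjusted p = 0.153 in the fit of the 6 libraries alone).

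Most cell cycle genes were not called. Of 32 S phase genes 5 rose and 1 fell (4 and 1 without replicate 3), and of 34 mitosis genes 4 rose and 1 fell (5 and 1). Over all genes tested 14.4% rose and 12.1% fell, so the rises in these lists were near that share and the falls below it. Tpx2, a spindle gene, measured 4.11, 3.44 and 4.32 CPM in cells without tau and 11.6, 12.5 and 12.3 CPM in cells with it (log2 change 1.62, SE 0.15, adjusted p = 4.52e-07), and Mki67 rose by 1.03, a call lost in the fit of the 6 libraries alone (adjusted p = 0.0922). Cenpa, the centromeric histone, fell by 2.48, and Ccnd2, a G1 cyclin, rose by 2.14. Of 28 genes for G1 cyclins, CDK inhibitors and p53 targets 5 rose and 6 fell (6 and 6 without replicate 3). In the FOXO and insulin list 6 of 27 rose and 5 fell (5 and 7 without replicate 3). Irs2, an adaptor of the insulin receptor, measured 50.8, 42.7 and 16.5 CPM in cells without tau and 11.4, 9.92 and 9.37 CPM in cells with it (log2 change -1.84, SE 0.31, adjusted p = 0.000328), and Igf1r fell by 1.22 (adjusted p = 0.077 in the fit of the 6 libraries alone). In iron handling, Slc40a1 (ferroportin), which exports iron, measured 106, 102 and 99.7 CPM in cells without tau and 29.4, 23.3 and 29.9 CPM in cells with it (log2 change -1.90, SE 0.11, adjusted p = 3.34e-09), and 8 of 17 members rose and 4 fell (7 and 5 without replicate 3). Among 26 matrix genes and proteases 6 rose and 7 fell (7 and 10 without replicate 3): Mmp14 and Tgfbi rose by 1.82 and 1.94, and Plaur, the urokinase receptor, fell by 2.33. Of 15 alternative activation genes 4 rose and 5 fell (5 and 5 without replicate 3), with Chil3 at 0.41 not called. Of 16 genes for tau, its kinases and its chaperones 1 rose and 3 fell (0 and 4 without replicate 3); Mapt itself was at -0.60 and was not called, and the kinase gene Fyn fell by 0.66 (adjusted p = 0.0879 in the fit of the 6 libraries alone).

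**Figure D5:**
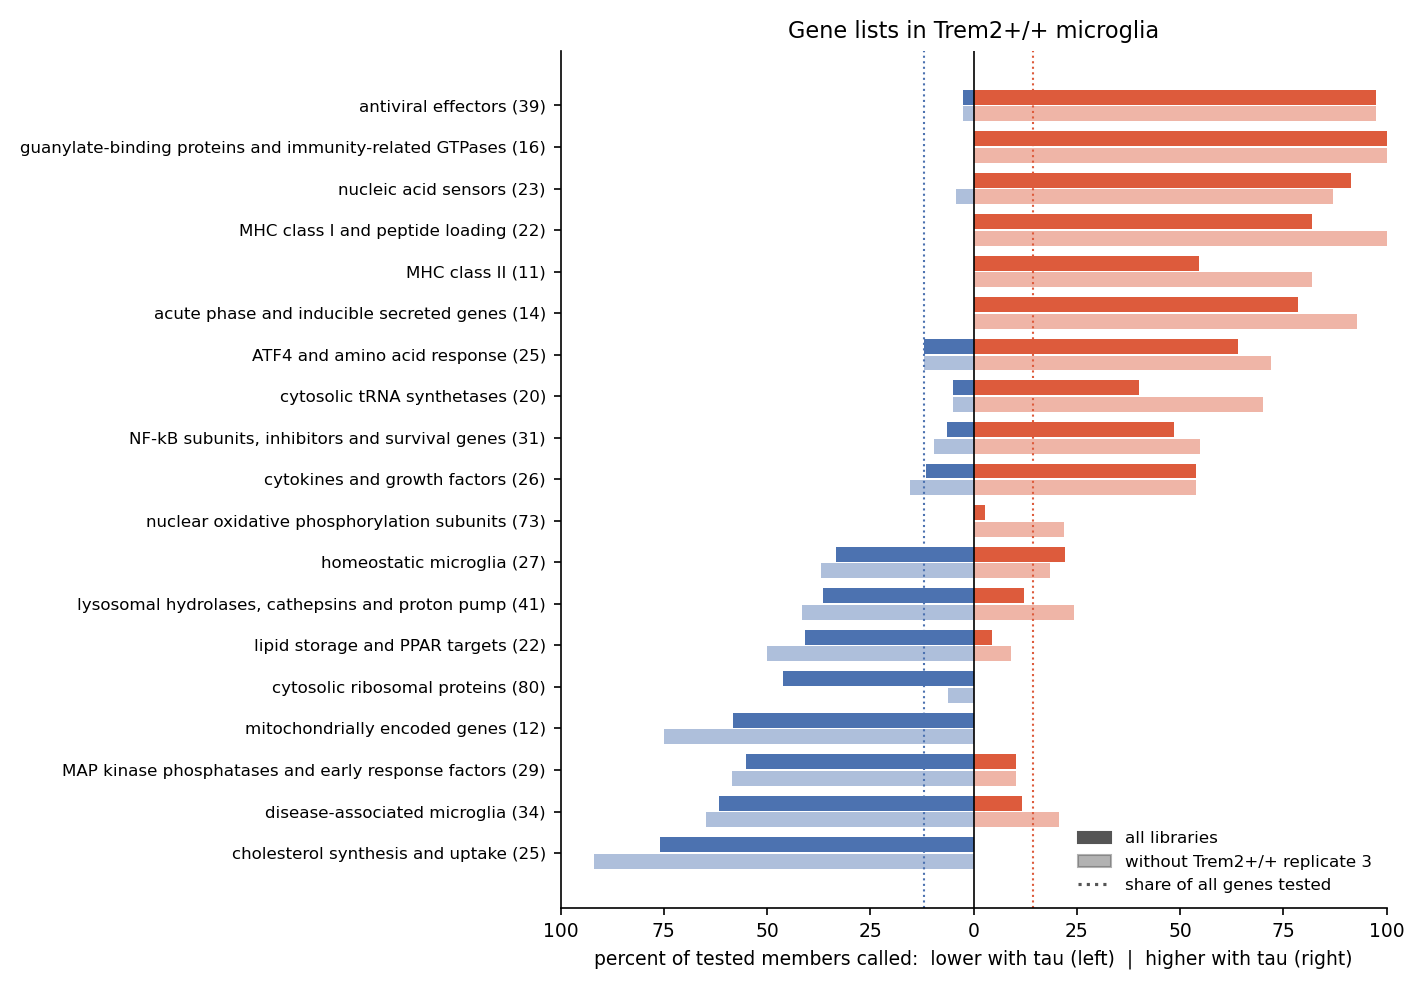
Percent of the tested members (number in brackets) of 19 gene lists called higher (red, right) or lower (blue, left) with tau, with all libraries (full colour) and without replicate 3 (pale); dotted lines mark the 14.4% and 12.1% of all genes tested that were called higher and lower. Interferon, antigen presentation and ATF4 lists extend to the right and cholesterol, disease-associated and early response lists to the left, and the ribosomal protein bar shrinks from 37 to 5 genes without replicate 3.

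Markers of other cell types moved with tau in part. Of 11 tested oligodendrocyte lineage genes 2 rose and 4 fell (2 and 4 without replicate 3, median -0.61). All 12 genes of that list summed to 221 to 262 CPM without tau and 283 to 308 CPM with it. The higher sum came from Cnp, which interferon also induces: it measured 57.6, 65.8 and 66.8 CPM in cells without tau and 169, 179 and 157 CPM in cells with it (log2 change 1.41, SE 0.098, adjusted p = 1.67e-08). Olig1, Cspg4 and Mbp fell by 1.04, 1.56 and 0.49, and none of these 3 falls was called in the fit of the 6 libraries alone (adjusted p = 0.054, 0.0806 and 0.139). The 12 astrocyte genes, of which 7 were tested, summed to 62.1 to 107 CPM without tau and 92.8 to 102 CPM with it. Of the 7, 1 rose and 1 fell. Aldh1l1, with 23.7, 28.3 and 29.7 CPM in cells without tau and 74.6, 73.6 and 65.4 CPM in cells with it, took most of the sum with tau and rose by 1.39, Fabp7 fell by 1.59 (adjusted p = 0.0936 in the fit of the 6 libraries alone), Gfap stayed at or below 1.30 CPM, and Aqp4 and Gja1 at or below 0.36 and 0.31 CPM. The 12 neuron genes, of which 6 were tested, summed to 14.8 to 17.5 CPM without tau and 5.04 to 5.68 CPM with it. The 1 call among the 6 was Eno2, which measured 14.1, 12.7 and 9.65 CPM in cells without tau and 2.49, 2.29 and 2.44 CPM in cells with it and fell by 2.33. The 14 fibroblast and vascular genes summed to 10.3 to 29.4 CPM without tau and 64.7 to 74.3 CPM with it. Of the 6 tested, 3 rose and 0 fell (3 and 0 without replicate 3). The 3 were endothelial markers: Cdh5 went from 4 to 71 counts, a ratio of 17.1 (95% counting interval 6.37 to 64.3; log2 change 3.97, SE 0.73, adjusted p = 0.000657), and Kdr and Flt1 rose by 2.24 and 1.26 (adjusted p = 0.15 for Flt1 in the fit of the 6 libraries alone). Pecam1, also endothelial, at -1.17 was not called, and Cldn5, Lum and Rgs5 had 0 counts. The 18 border macrophage, monocyte and granulocyte genes, of which 10 were tested, summed to 1151 to 2321 CPM without tau and 1367 to 1429 CPM with it. Ly6c2, a monocyte surface gene, measured 1.04, 7.2 and 5.74 CPM in cells without tau and 135, 148 and 154 CPM in cells with it (log2 change 4.96, SE 0.51, adjusted p = 1.59e-06). Ccr2 rose by 1.22, and F13a1 fell by 3.28, while Lyve1, S100a9, Retnlg and Ngp had 0 counts. Of 12 lymphocyte markers 6 had 0 counts, Cd3e and Cd8a among them. The part of other cells in the results above was not tested.

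Compared with R47H/+ cells, the Trem2+/+ response was higher for most antiviral effectors and lower for several NF-kB and early response genes, where the response is the signed log2 change with tau. The interaction of tau and genotype was called for 713 genes, 5.37% of those tested (edgeR quasi-likelihood F-test), and for 1610 (11.9%) without replicate 3 and a length-shifted R47H/+ library with tau. The Trem2+/+ response was called higher for 31 of 39 antiviral effectors, 14 of 16 guanylate-binding proteins and GTPases and 13 of 23 nucleic acid sensors, and lower for 0 in each list. Interaction counts per list, here and elsewhere, are from the fit on all 18 libraries and were not made without the length-shifted libraries. The lists and members were chosen with the Trem2+/+ response known, which is one term of this difference, so these shares are a description. Irf7 rose by 4.13 in Trem2+/+ cells and by 1.59 in R47H/+ cells (difference of the responses 2.54, SE 0.19, adjusted p = 9.77e-07). In R47H/+ cells Irf7 measured 1410.2, 1210.5 and 1194 CPM in the untreated libraries and 3221, 4493 and 3788 CPM after tau. R47H/+ cells without tau thus lay far above Trem2+/+ cells without tau, and the levels with tau were closer but still higher in R47H/+ cells. Gbp4 rose by 6.15 against 2.41 (difference of the responses 3.74, SE 0.28, adjusted p = 9.77e-07), from 28.6, 26.8 and 27.6 CPM in R47H/+ cells without tau. With tau, Gbp4 measured 168, 129 and 144 CPM in R47H/+ cells, above the 60.8, 69.6 and 73.5 CPM of Trem2+/+ cells. For Irf7 and Gbp4 the higher response of Trem2+/+ cells was thus not a higher level with tau. In the ATF4 list the response was higher for 4 of 25 members and lower for 2. Chac1, Slc1a4 and Slc7a5 rose more in Trem2+/+ cells, by 3.16, 2.86 and 3.11 against 1.62, 1.13 and 1.27, and Psat1 and Cebpb had the lower responses, at -0.52 and -0.12 against 0.34 and 1.37.

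Cytokine and growth factor genes split evenly, with a higher Trem2+/+ response for 4 of 26 and a lower one for 4. Tnf rose by 0.53 in Trem2+/+ cells and by 2.53 in R47H/+ cells (difference of the responses -2.002, SE 0.23, adjusted p = 6.51e-05), and Il1rn by 1.97 and 3.47 (difference of the responses -1.49, SE 0.2, adjusted p = 0.000293). Tnfsf10 and Il18bp rose more in Trem2+/+ cells, by 4.32 and 3.54 against 1.92 and 2.37. The Trem2+/+ response was lower for 7 of 31 NF-kB genes, 6 of 24 costimulatory genes and 3 of 12 CC chemokines, and higher for 0, 1 and 0. Ch25h rose by 2.28 and 4.70 (difference of the responses -2.43, SE 0.37, adjusted p = 0.00073). In the cholesterol list 2 of 25 members differed, and both fell less in Trem2+/+ cells: Idi1 by 1.10 and Stard4 by 1.003, against 2.40 and 1.81 in R47H/+ cells. No member of the ribosomal protein and mitochondrially encoded lists had a called difference. A difference that was not called does not show that the genotypes responded alike.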

How the data were processed

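RNA was sequenced from 18 libraries, 3 in each of 6 groups, and 6 libraries carry the comparison reported here. Per the labels' protocols, RNA was isolated with a Zymo micro kit, libraries were made with a NEBNext Ultra kit, and paired reads of 150 nt were sequenced. The authors deposited raw counts of reads per gene, and the submitters' processing notes name STAR, featureCounts, DESeq2 and GRCm38 (mm10). Versions, annotation and strand setting are not given in the sources used here, so reads of overlapping or antisense genes cannot be told apart. The table held 54532 genes, 27 symbols that a spreadsheet had turned into dates were restored, and 54409 identifiers matched a symbol. Every count column matched a sample's labels.

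Genes were filtered with filterByExpr, scaled with TMM and tested with edgeR 4.0.16 in R 4.3.3 (quasi-likelihood F-test, group means for all 6 groups, Benjamini-Hochberg adjustment over 13267 genes, threshold 0.05). The response was tau minus no tau in Trem2+/+ cells, and the interaction was that response minus the one of R47H/+ cells. Log2 CPM values used a prior count of 2, and fold changes used the default prior of the fit. Scripts were tested on simulated data. The alternatives tried were DESeq2 1.42.0, RLE scaling, no count filter, the 6 libraries alone with and without replicate 3, a replicate block, leaving out each library, leaving out both length-shifted libraries and an offset for gene length. Promoters of 300 bases came from RefSeq (GRCm38.p6). Of those compared, 82.0% had gene-strand letters that occur near the start of a transcript of the same gene in a reference annotation. Gene positions are on GRCm38. The libraries hold 17150277 to 20686299 counts, and reads carry no molecular identifiers, so intervals cover counting error only.

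The comparison, the gene lists and the genes named were chosen with earlier results of these data known. The rule named Trem2, 8 further genes, the 12 largest called changes in each direction (mean log2 CPM of at least 1, ranges that do not overlap, called without replicate 3) and up to 3 called members of each list with the smallest p. Other members are named for their role, after their values were seen. Libraries of the drug groups entered the fit only for the estimate of spread. Some genes that the rule or the lists hold are not reported here.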

Additional observations from a re-analysis of the deposited data

Results flagged for a closer look

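The response to tau of 64 of 183 named genes differed between Trem2+/+ and R47H/+ cells by the interaction of tau and genotype (edgeR quasi-likelihood F-test, adjusted p under 0.05), where 5.37% of all genes tested had a called interaction. The genes were named for their change in Trem2+/+ cells, which is one term of this difference, so their share is a description and is not to be read against that of all genes. Each value below is the log2 response of Trem2+/+ cells minus that of R47H/+ cells, with 3 libraries in each of the 4 groups. The response was higher in Trem2+/+ cells for 49 genes. A higher value can be a larger rise or a smaller fall, and Hpgd, Dkk2, Slc40a1, Gas6 and Cxcr4 fell with tau in Trem2+/+ cells. Differences above 2 log2 units were Gbp4 at 3.74, Apol9b at 3.49, Ifi44 at 3.29, Iigp1 at 3.27, Ms4a4c at 3.11, Cfb at 3.06, Oasl1 at 2.79, Irf7 at 2.54, Ifit2 at 2.50, Tnfsf10 at 2.40, H2-Q6 at 2.33, Slfn4 at 2.21, Tgtp2 at 2.19, Ifit1bl1 at 2.18 and Zbp1 at 2.15. Those from there down were Ifi209 at 1.88, Slc7a5 at 1.85, H2-Q7 at 1.84, Ccr2 at 1.78, C4b at 1.76, Slc1a4 at 1.73, Acss2 at 1.72, Ms4a6c at 1.66, Tap1 at 1.55, Cd4 at 1.55 and Treml2 at 1.55. They were followed by P2ry14 at 1.51, Hpgd at 1.44, Dkk2 at 1.37, Dhx58 at 1.33, Mlkl at 1.32, Cp at 1.29, Axl at 1.27, Slco3a1 at 1.19, Il18bp at 1.17, Cd180 at 1.10 and P2ry12 at 1.07. The smallest were Trib3 at 1.06, Usp18 at 0.99, Ass1 at 0.97, C1ra at 0.96, Cxcr4 at 0.88, Aldh1l1 at 0.85, Gas6 at 0.79, P2ry13 at 0.74, Slc40a1 at 0.63, Keap1 at 0.59, Trim21 at 0.54 and Pdia4 at 0.48.

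The response was lower in Trem2+/+ cells for 15 genes. A lower value can be a deeper fall, as for Egr2 and Myc, or a smaller rise, as for Tnf and Il1rn. The lowest values were Traf1 at -2.54, Eno2 at -2.47, Egr2 at -2.22, Tnf at -2.002, Cd276 at -1.80, Fos at -1.69, Egr1 at -1.67, Il1b at -1.65, Il1rn at -1.49, Plaur at -1.25 and Myc at -1.20. They were followed by Tpx2 at -1.03, Arg1 at -0.89, Bhlhe40 at -0.78 and Cd83 at -0.61. Without replicate 3 of Trem2+/+ cells without tau and the length-shifted R47H/+ library with tau, the difference was no longer called for Traf1 (-1.90, adjusted p = 0.0782) and Slco3a1 (0.89, adjusted p = 0.137), and the other 62 kept their call. The groups without tau also differed between genotypes, as the values of Irf7, Gbp4 and Fos above show. Groups of 3 libraries were not searched for outliers.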

How the results depend on the processing

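The count of genes called with tau stayed within 1.5 times of 3519 under RLE scaling (3588), no count filter (3227), DESeq2 (4149), a gene length offset (4219) and in the 5 Trem2+/+ libraries left without replicate 3 (4916). In the 6 Trem2+/+ libraries alone 1311 genes were called, 843 higher and 468 lower, and 332 gene list members in place of 629. Leaving out replicate 3 and the length-shifted R47H/+ library gave 5589 called genes, 2914 higher and 2675 lower, and 1610 for the interaction of tau and genotype in place of 713. The interaction gave 1194 genes with DESeq2 and 1089 with the length offset. Leaving out 1 Trem2+/+ library at a time gave 2640 to 4188 called genes, 1550 to 2133 higher, 1090 to 2199 lower, 509 to 694 list members and 476 to 1537 interactions, the last without replicate 1 without tau. Causes were not tested. Of the 183 genes named by rule, 30 lost their call in the 6 libraries alone and at most 7 in any other of the settings run, and 0 changed direction. Most were chosen as called in the fit on all libraries, and the largest changes also as called without replicate 3. Their stability is thus in part fixed by the choice. Over all genes, 2928 of the 3519 calls were shared with the fit without replicate 3.

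Same-numbered libraries with and without tau did not deviate together (correlations over genes 0.11, -0.14 and -0.08). The length shift of replicate 3 enters these deviations, so they cannot tell whether the numbers pair the libraries. With a replicate block 3187 genes were called, 1811 higher and 1376 lower, with 571 list members and 598 interactions. Totals of 17150277 to 20686299 counts limit genes of few counts, such as Ifnb1 and Cxcl11, for which counting intervals are given.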
